A study of Homo sapiens with 6 samples.

Results

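Mirtrons are miRNAs made from short introns, and 9 mature mirtron arms from 8 hairpins were followed in small RNA libraries of BEAS-2B cells with and without extra PRMT1. The arms were chosen by name, as rows of the known mature miRNA class: hsa-miR-877-5p, hsa-miR-877-3p, hsa-miR-1224-5p, hsa-miR-1225-5p, hsa-miR-1226-3p, hsa-miR-1227-3p, hsa-miR-1229-3p, hsa-miR-1236-3p and hsa-miR-1238-3p. Of the 9, 8 had reads and are among the 1727 known miRNA names of the 6 tables, while hsa-miR-1238-3p had no row in any table and was counted as 0. BEAS-2B is an immortalised human bronchial epithelial line. The PRMT1 group (n = 3) received the plasmid pcDNA-PRMT1 and the control group (n = 3) the empty plasmid pcDNA3.1, each for 48 h, in otherwise unmodified BEAS-2B cells. Whether the 3 libraries of a group came from separate cultures is not stated, so each p-value rests on library-to-library spread that could be purely technical. The tables hold small RNA, so the level of PRMT1 itself was not analysed here.

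A conventional miRNA is cut out of its primary transcript by DROSHA with DGCR8 and then trimmed by DICER. A mirtron skips the DROSHA cut: the spliceosome removes a short intron, the lariat is debranched, and the freed intron folds into a hairpin that DICER can cut and Argonaute can load. Its ends are therefore the splice sites of the intron, a GU at the 5′ end and an AG at the 3′ end. PRMT1 is the main enzyme of asymmetric arginine dimethylation, and many RNA-binding proteins are among its substrates.

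All 9 mature sequences were found in RefSeq (GRCh38.p14). They are shown because they are the molecules counted, 5′ to 3′, with the seed (bases 2 to 8, which pairs with targets) in capitals.
hsa-miR-877-5p: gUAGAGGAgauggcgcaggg
hsa-miR-877-3p: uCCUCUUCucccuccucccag
hsa-miR-1224-5p: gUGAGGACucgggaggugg
hsa-miR-1225-5p: gUGGGUACggcccagugggggg
hsa-miR-1226-3p: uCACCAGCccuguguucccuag
hsa-miR-1227-3p: cGUGCCACccuuuuccccag
hsa-miR-1229-3p: cUCUCACCacugcccucccacag
hsa-miR-1236-3p: cCUCUUCCccuugucucuccag
hsa-miR-1238-3p: cUUCCUCGucugucugcccc

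The 9 seeds were all different, and 0 other names of the tables with a known sequence carried any of them. The closest pair was hsa-miR-877-3p and hsa-miR-1236-3p, whose seeds share the 6 bases CUCUUC, shifted by 1 position. The 3 members from 5′ arms began with GU in 3 of 3 cases, against 5.44% of the 607 names ending in 5p that had a sequence. The 6 members from 3′ arms ended with AG in 5 of 6 cases, against 24.2% of 631 names ending in 3p. The exception was hsa-miR-1238-3p, whose annotated arm stops 2 bases before the end of its hairpin. Ends of this kind go with the choice of mirtrons, and the names compared with include the members that had rows. The 3′ arms were rich in pyrimidines, as the stretch before a 3′ splice site usually is, with a median of 80.0% C or U (range 68.2% to 90.5%) against 56.5% over all 3p names. The 5′ arms were poor in them, with a median of 26.3% against 45.5% over all 5p names. The members were also rich in G and C, with a median of 65.0% against 52.2% over the 1555 names with a sequence. No stretch of 18 bases of any member, with up to 1 mismatch, occurred in another of the 1562 RefSeq hairpins searched. The rest of the genome was not searched, and reads were not examined.

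Each of the 8 hairpins filled an annotated intron exactly, with 0 bases between hairpin end and exon on either side, in GENCODE release 29 (GRCh38). All 8 introns lie between coding exons of a protein-coding gene on the same strand. Filling an intron does not show that a hairpin is made by splicing, and the route was not tested for any member. The submitters' processing notes name the build GRCh37.p13, so these positions were matched by miRNA name and not by coordinates of the files. Beginning with GU and ending with AG held for 8 of 8 member hairpins and for 2.59% of the 927 hairpins of names in the tables. Such ends come with the choice of mirtrons, and the 927 include the hairpins of members that had rows. Of these hairpins 3 are shown with those 4 bases in capitals: those of the most and next most abundant member, and that of the member without reads.
MIR877: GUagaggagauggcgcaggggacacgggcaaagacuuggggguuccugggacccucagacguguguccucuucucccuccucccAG
MIR1226: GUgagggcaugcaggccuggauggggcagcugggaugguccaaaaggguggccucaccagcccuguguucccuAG
MIR1238: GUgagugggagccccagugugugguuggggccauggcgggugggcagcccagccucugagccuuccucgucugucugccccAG

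MIR877 is intron 13 of ABCF1, an ATP-binding cassette protein that acts in translation initiation (chr6:30584332-30584417, plus strand, 86 bases). MIR1226 is intron 20 of DHX30, an RNA helicase of mitochondrial ribosome assembly (chr3:47849555-47849629, plus strand, 75 bases). MIR1224 is intron 18 of VWA5B2, a protein with a von Willebrand factor A domain (chr3:184241405-184241489, plus strand, 85 bases). MIR1227 is intron 4 of PLEKHJ1, which encodes a pleckstrin homology domain protein (chr19:2234062-2234149, minus strand, 88 bases). MIR1229 is intron 13 of MGAT4B, a glycosyltransferase that branches N-glycans (chr5:179798278-179798346, minus strand, 69 bases). MIR1225 is intron 45 of PKD1, the polycystin-1 gene mutated in polycystic kidney disease (chr16:2090195-2090284, minus strand, 90 bases). MIR1236 is intron 3 of NELFE, a subunit of the negative elongation factor of RNA polymerase II (chr6:31956839-31956940, minus strand, 102 bases), and 1 annotated NELFE transcript has an exon that overlaps it. MIR1238 is intron 8 of ATG4D, a cysteine protease of autophagy (chr19:10552122-10552204, plus strand, 83 bases).

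Total counts per library were 23.95 M to 25.79 M in PRMT1 libraries and 24.01 M to 25.09 M in control libraries, of which known miRNAs took 11.91 M to 14.43 M and 11.54 M to 16.42 M. Control library 2 stood apart, with 66.0% of its known miRNA counts on miR-21-5p against 49.4% to 59.1% in the other 5, and a TMM factor of 0.761 against 0.986 to 1.11. All 7 bronchial epithelial miRNAs listed had reads in every library, summing to 7998 to 8874 CPM in PRMT1 and 7745 to 10085 CPM in control libraries. Most of this sum was hsa-miR-200a-3p, hsa-miR-200b-3p and hsa-miR-429. The others were low, with 487 to 770 counts for hsa-miR-200c-3p and 169 to 371 for hsa-miR-141-3p over all libraries. Hsa-miR-205-5p had 50 to 135 counts and hsa-miR-203a-3p 34 to 64, fewer than the neural hsa-miR-9-5p with 2177 to 3003. The 15 listed miRNAs of other cell types summed to 1821 to 2592 CPM in PRMT1 and 1891 to 2295 CPM in control libraries, most of it the endothelial miR-126-3p (19224 to 32308 and 21223 to 25068 counts). None of these 15 was at 0 throughout, and 8 were tested, of which 7 had fold changes above 0 and 1 below, with a median of 0.19 on the log2 scale and 0 called. Of the red blood cell miRNAs, hsa-miR-451a had 102, 105 and 233 counts in PRMT1 and 56, 107 and 54 counts in control libraries, a log2 fold change of 1.04 (SE 0.47, edgeR adjusted p = 0.74), while hsa-miR-144-3p had 3 counts or fewer everywhere. Their part in the results below was not tested. In bulk RNA, fewer cells of a kind and less RNA per cell cannot be told apart.

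The listed mirtron arms made up a small part of the known miRNA counts. Further mirtrons, such as hsa-miR-1237-3p, are outside the sums given here. Together the 8 members with reads had 763, 689 and 539 counts in PRMT1 libraries 1 to 3, and 1071, 466 and 830 counts in control libraries 1 to 3. That is 0.00444% to 0.00579% of known miRNA counts in PRMT1 and 0.00284% to 0.00864% in control libraries. The most abundant member, hsa-miR-877-5p, supplied 53.8% to 63.2% of these reads in PRMT1 and 54.7% to 71.9% in control libraries. It ranked 220 by mean CPM over all known names, while the other tested members ranked between 348 and 572.

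The order of levels by mean CPM over 6 libraries began with hsa-miR-877-5p at 34.0 CPM, followed by hsa-miR-1226-3p at 8.72 and hsa-miR-1224-5p at 6.51. Below them stood hsa-miR-1227-3p at 2.68, hsa-miR-1229-3p at 1.76 and hsa-miR-877-3p at 1.54 CPM. CPM here is relative to the TMM-scaled total of known miRNA counts, with no length term, since each read covers an arm of 19 to 23 bases. How well each sequence is captured was not measured. Hsa-miR-877-5p was above the next member without overlap of ranges (20.4 to 56.5 against 6.38 to 10.2 CPM) and in 6 of 6 libraries. The next 4 neighbouring pairs in this order overlapped in range. Hsa-miR-1226-3p had more counts than hsa-miR-1224-5p in 5 of 6 libraries, and hsa-miR-1229-3p had more than hsa-miR-877-3p in 3 of 6. The lowest tested member, hsa-miR-877-3p, did not overlap with the 3 members under it.

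Those 3 members were at the detection limit, taken as 3 counts or fewer in a library, in all 6 libraries. Hsa-miR-1225-5p had 0, 0 and 1 counts in PRMT1 and 1, 3 and 0 counts in control libraries. Hsa-miR-1236-3p had 1, 0 and 0 counts in PRMT1 and 1, 1 and 0 in control libraries. Hsa-miR-1238-3p had 0 in every library. Neither direction nor fold can be given for these 3. The limit of 3 counts is 0.208 to 0.252 CPM in PRMT1 and 0.183 to 0.26 CPM in control libraries before TMM scaling. The exact two-sided 95% Poisson interval of a count of 0 reaches 3.69 counts. Such limits and intervals cover counting error only. Of the 54 pairs of member and library, 18 were at this limit, all from these 3 members, and the other 6 members were above it everywhere.

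**Figure D1:**
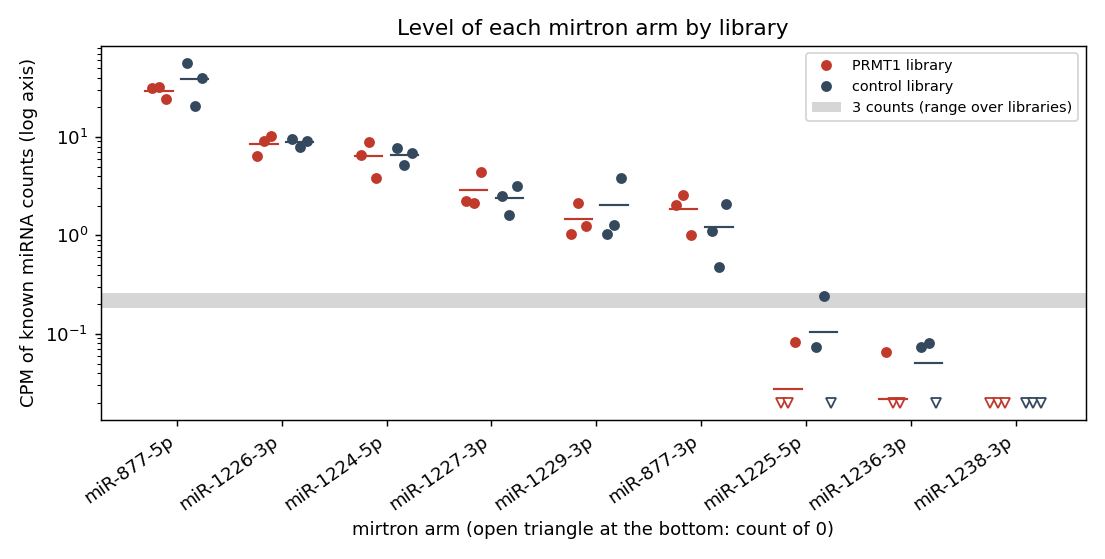
CPM of known miRNA counts (log axis) of the 9 mirtron arms in PRMT1 (left) and control (right) libraries, 1 point per library with the group mean as a bar. In each library 6 arms lie above the grey band of 3 counts (0.183 to 0.26 CPM before TMM scaling), and hsa-miR-1225-5p, hsa-miR-1236-3p and hsa-miR-1238-3p lie at or under it, with open triangles for counts of 0.

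**Figure D2:**
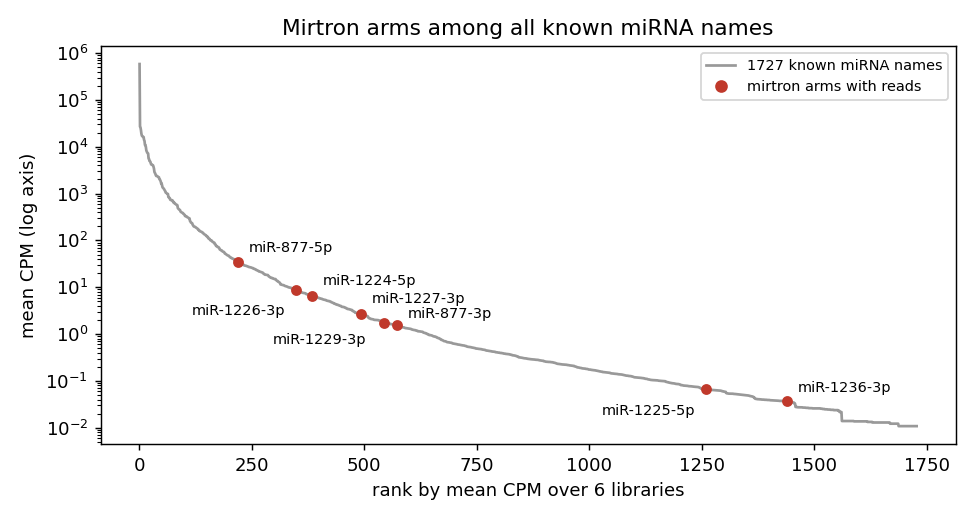
Mean CPM over 6 libraries (log axis) of 1727 known miRNA names by rank, with the 8 mirtron arms that had reads marked. Hsa-miR-877-5p is at rank 220, and hsa-miR-1236-3p, at the detection limit, at rank 1439.

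The main question was whether the arms differed between cells given PRMT1 and control cells. The 6 members above the limit passed the filter on low counts and were tested in one fit with 668 known names. No member passed an adjusted p of 0.05 with edgeR, 0 of 6, and 0% of all 668 names did. At an unadjusted p under 0.05 there were 0 of 6 members, against 5.39% of all tested names. The groups overlapped in CPM for all 6 members, while 10.2% of all tested names had groups that did not overlap. DESeq2 and limma-voom called 0 members as well. Of the 6 fold changes, 2 lay above and 4 below 0, with a median of -0.044 on the log2 scale, against 0.043 over all tested names.

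The largest member, hsa-miR-877-5p, had 482, 387 and 290 counts in PRMT1 libraries 1 to 3, and 770, 255 and 509 counts in control libraries 1 to 3. In CPM these were 31.4, 31.8 and 24.3 in PRMT1 and 56.5, 20.4 and 39.6 in control libraries. The PRMT1 values lay inside the range of the controls, whose lowest and highest libraries were numbers 2 and 1. The means were 29.1 ± 4.24 CPM in PRMT1 and 38.8 ± 18.1 CPM in control libraries (SD, n = 3 each). The log2 fold change was -0.41 (SE 0.35, 95% interval -1.21 to 0.38, edgeR adjusted p = 0.80). Leaving out control library 1 gave -0.054, and leaving out control library 2 gave -0.74.

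The other arm of that hairpin, hsa-miR-877-3p, had 31, 31 and 12 counts in PRMT1 and 15, 6 and 27 counts in control libraries. Its means were 1.86 ± 0.785 CPM in PRMT1 and 1.23 ± 0.817 CPM in control libraries (SD, n = 3 each), and the groups overlapped. Its log2 fold change was 0.60 (SE 0.54, 95% interval -0.62 to 1.81, edgeR adjusted p = 0.83), opposite in sign to that of the 5p arm. It ranged from 0.20 without control library 2 to 1.15 without control library 3.

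Most reads of the hairpin came from its 5p arm in every library. The 5p share of miR-877 arm reads was 94.0%, 92.6% and 96.0% in PRMT1 libraries and 98.1%, 97.7% and 94.96% in control libraries. The 95% Wilson intervals were 89.7% to 94.7% in PRMT1 library 2, the lowest share, and 96.9% to 98.8% in control library 1, the highest. In PRMT1 library 3 and control library 3 they were 93.2% to 97.7% and 92.8% to 96.5%, and overlapped. Such intervals cover counting error only, not the spread between libraries. The means were 94.2% ± 1.73 in PRMT1 and 96.9% ± 1.70 in control libraries (SD, n = 3 each). The difference of -2.73 percentage points had an exact permutation p of 0.2 (two-sided), where 3 against 3 libraries cannot go below 0.1. PRMT1 library 3 lay above control library 3, so the groups overlapped. With 1 library left out the difference ran from -1.93 points, without PRMT1 library 2, to -3.71 points, without control library 3. Without control library 2 it was -2.34 points.

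In miR-1224, miR-1226, miR-1227 and miR-1229 most reads also came from a single arm, which was not the same side in each. The hairpins of miR-1225, miR-1236 and miR-1238 had too few reads for a share. The 5p arm held 93.9% to 97.1% of miR-1224 reads in PRMT1 and 92.9% to 100% in control libraries. For miR-1226 the 5p arm held 0.813% to 2.97% in PRMT1 and 0.99% to 2.52% in control libraries, so nearly all reads were of the 3p arm. All miR-1227 reads were of the 3p arm, and the 5p arm of miR-1229 had at most 1 count in a library.

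Reads were also listed under Rfam precursor families, a separate class of rows that the fit did not use. The mir-877 family had 219, 329 and 120 counts in PRMT1 and 281, 177 and 259 counts in control libraries. Per 100 reads of the arms this was 42.7, 78.7 and 39.7 in PRMT1 and 35.8, 67.8 and 48.3 in control libraries, with library 2 highest in both groups. The mir-1224 family stood at 46.2, 71.9 and 83.7 per 100 arm reads in PRMT1 and 69.5, 65.7 and 66.7 in control libraries. The mir-1226 and mir-1227 families had at most 1 count in any library. Which part of the hairpin these precursor reads cover is not given in the tables.

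**Figure D3:**
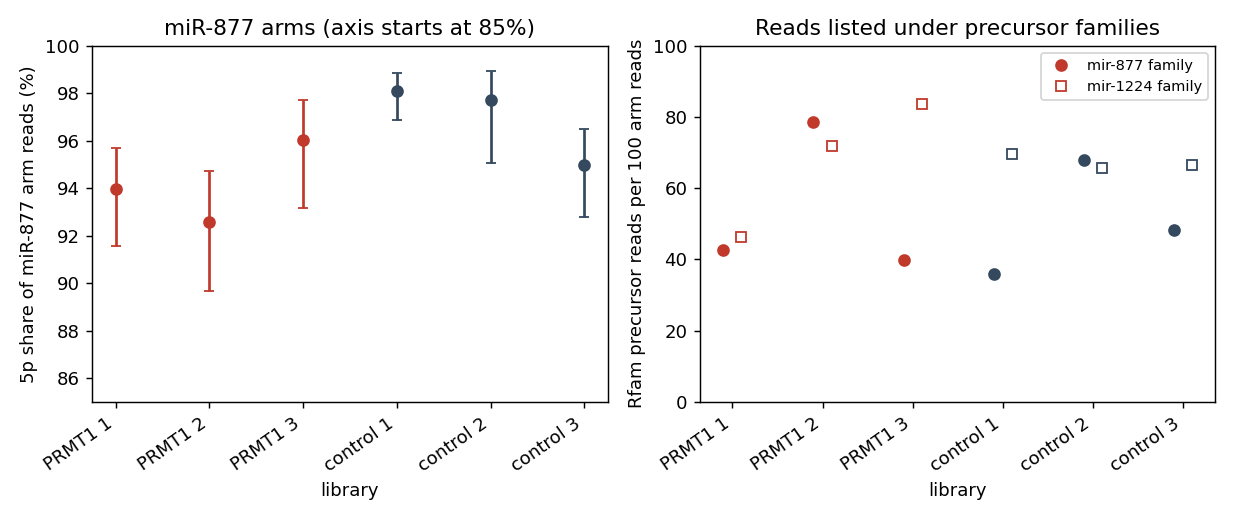
Left, 5p share of miR-877 arm reads (%, axis from 85%) in each PRMT1 and control library with 95% Wilson intervals. Right, reads listed under the Rfam families mir-877 and mir-1224 per 100 reads of the mature arms. The 5p shares run from 92.6% to 96.0% in PRMT1 and from 94.96% to 98.1% in control libraries.

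Hsa-miR-1226-3p, reported to repress the mucin MUC1 in breast cancer cells, had the lowest spread over all 6 libraries, relative to its mean, of the 6 tested members. Within PRMT1 libraries alone its SD was 23.0% of the mean, against 14.6% for hsa-miR-877-5p. The counts of hsa-miR-1226-3p were 98, 111 and 122 in PRMT1 and 131, 100 and 116 in control libraries. All 6 libraries lay between 6.38 and 10.2 CPM, with means of 8.57 ± 1.97 CPM in PRMT1 and 8.88 ± 0.816 CPM in control libraries (SD, n = 3 each). The log2 fold change was -0.054 (SE 0.29, 95% interval -0.71 to 0.60, edgeR adjusted p = 0.98). It was 0.079 without PRMT1 library 1 and -0.14 without control library 2. Its biological coefficient of variation, the spread between replicates beyond counting, was estimated at 0.279, against a median of 0.327 over all tested names.

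Hsa-miR-1224-5p had 101, 108 and 46 counts in PRMT1 and 105, 65 and 88 counts in control libraries. PRMT1 library 3 was the lowest, with an exact Poisson interval of 33.7 to 61.4 counts, and PRMT1 library 2 the highest in CPM. Means were 6.43 ± 2.52 CPM in PRMT1 and 6.58 ± 1.27 CPM in control libraries (SD, n = 3 each). The log2 fold change was -0.034 (SE 0.36, 95% interval -0.84 to 0.77, edgeR adjusted p = 0.99). Omitting PRMT1 library 3 gave 0.22, omitting control library 1 gave 0.083, and omitting control library 2 gave -0.20.

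Hsa-miR-1227-3p had 34, 26 and 53 counts in PRMT1 and 34, 20 and 41 counts in control libraries. PRMT1 library 3 was the highest of the 6. Its means were 2.93 ± 1.30 CPM in PRMT1 and 2.43 ± 0.797 CPM in control libraries (SD, n = 3 each). The log2 fold change of 0.26 (SE 0.41, 95% interval -0.66 to 1.19, edgeR adjusted p = 0.93) became -0.17 without PRMT1 library 3 and 0.022 without control library 2.

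Hsa-miR-1229-3p had 16, 26 and 15 counts in PRMT1 and 14, 16 and 49 counts in control libraries. Control library 3 was the highest, with an exact Poisson interval of 36.3 to 64.8 counts, and control library 1 the lowest, with 7.65 to 23.5 counts. Its means were 1.48 ± 0.581 CPM in PRMT1 and 2.04 ± 1.54 CPM in control libraries (SD, n = 3 each). The log2 fold change was -0.47 (SE 0.54, 95% interval -1.69 to 0.75, edgeR adjusted p = 0.87), but 0.30 without control library 3 and -0.72 without control library 2.

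**Figure D4:**
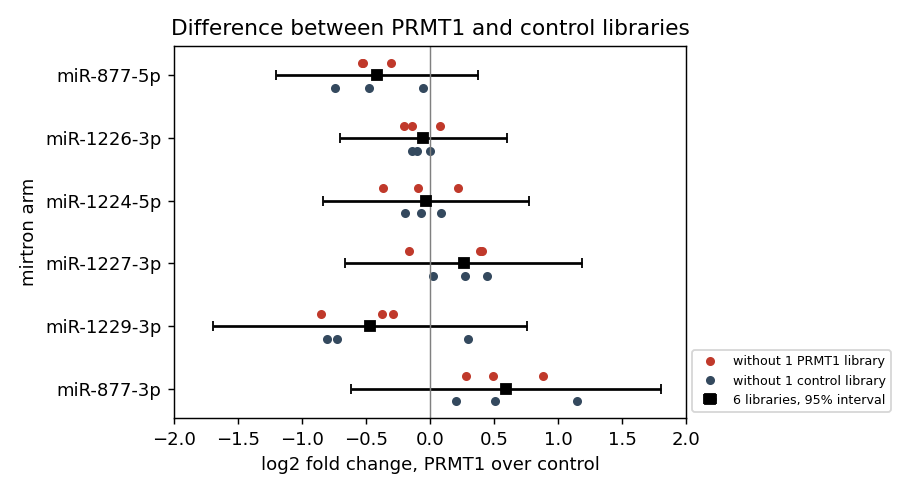
Log2 fold change, PRMT1 over control, of the 6 tested mirtron arms (squares, all 6 libraries, with 95% intervals), and the value when 1 library was left out (red, a PRMT1 library; dark blue, a control library). Every interval includes 0, and the points of hsa-miR-1224-5p, hsa-miR-1226-3p, hsa-miR-1227-3p and hsa-miR-1229-3p fall on both sides of it.

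The intervals set what these libraries could show. They were taken member by member, without adjustment over the 6 members. They rest on the spread between libraries, which could be purely technical, and may then be too narrow for separate cultures. Within these limits, the intervals of hsa-miR-1226-3p, the narrowest, and hsa-miR-1224-5p leave out a log2 fold change of 1 in either direction. That of hsa-miR-877-5p leaves out a rise of that size but not a fall. Those of hsa-miR-877-3p, hsa-miR-1227-3p and hsa-miR-1229-3p reach beyond 1 on at least one side. The median SE of the 6 members was 0.386 on the log2 scale, against 0.337 over all tested names.

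As a sum, the members stood at 49.6, 56.6 and 45.1 CPM in PRMT1 libraries and at 78.6, 37.3 and 64.6 CPM in control libraries. The PRMT1 libraries lay between control libraries 2 and 3. Without hsa-miR-877-5p the sums were 18.3, 24.8 and 20.8 CPM in PRMT1 and 22.1, 16.9 and 24.97 CPM in control libraries, again overlapping. For the sum of all members the log2 ratio of the group means was -0.25 over all libraries. For the sum without hsa-miR-877-5p it was -4.95e-05. The ratio for all members was -0.013 when control library 1 was left out and -0.50 when control library 2 was.

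A related list held the 7 remaining arms of these hairpins and both arms of miR-1228 and miR-1237, taken here as further mirtrons, of LRP1 and RPS6KA4. Whether their hairpins are made by splicing was not tested. Of its 11 names 9 had reads and 1 was tested, hsa-miR-1237-3p. It had 17, 27 and 15 counts in PRMT1 and 26, 13 and 25 counts in control libraries, a log2 fold change of -0.11 (SE 0.42, edgeR adjusted p = 0.98). Hsa-miR-1227-5p and hsa-miR-1238-5p had no reads, so no read of either arm of the ATG4D mirtron was counted in the class. Hsa-miR-1224-3p had 3, 6 and 3 counts in PRMT1 and 0, 5 and 5 counts in control libraries, the highest of the opposite arms outside miR-877.

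Other miRNAs made by unusual routes and conventional intronic miRNAs are set beside the mirtrons for scale. All 7 listed miRNAs that bypass DROSHA or DICER were tested, with 0 called, 2 above and 5 below 0, and a median mean level of 64.1 CPM, against 4.59 CPM for the 6 tested mirtron arms and 9.86 CPM over all tested names. Of 16 conventional intronic miRNAs 15 were tested, with 0 called, 4 above and 11 below 0, and a median level of 811 CPM. Their median log2 fold changes were -0.39 and -0.18, against -0.044 for the mirtron arms, and the differences between lists were not tested. The groups did not overlap for 0 of the 6 mirtron arms and for 4 of the 15 conventional intronic miRNAs, against the 10.2% over all tested names. The most abundant names of the lists were hsa-miR-320a-3p at 2501 ± 745 CPM in PRMT1 and 3286 ± 311 CPM in control libraries, and hsa-miR-26a-5p, from introns of CTDSP genes, at 12945 ± 1594 CPM in PRMT1 and 13522 ± 676 CPM in control libraries (SD, n = 3 each).

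The names whose levels ran most like those of hsa-miR-877-5p, by Pearson correlation of log2 CPM over the 6 libraries among 666 names, were hsa-miR-887-3p (r = 0.95), hsa-miR-1290 (r = 0.95) and hsa-miR-320c (r = 0.94). They are the highest of many correlations over libraries that share depth and scaling, and are given as a description. Hsa-miR-320c stood at 346, 341 and 334 CPM in PRMT1 and at 603, 295 and 502 CPM in control libraries, with control library 2 lowest and control library 1 highest, as for hsa-miR-877-5p.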

How the data were processed

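Small RNA was read on a BGI-500 instrument and filtered by BGI, as the series' design text states. The submitters' processing notes name HISAT, Bowtie2, RSEM and GRCh37.p13. Which tool made the tables, and how reads with several matches were placed, is not given in the sources used here. Per the labels, the library protocol was one of mRNA enrichment or rRNA removal, although the tables list small RNA. Deposited counts are whole reads per feature, per the file headers. The TPM values deposited by the authors equal CPM of the library total to within 0.005 and were used only for that check. An absent row was taken as a count of 0.

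The mature class (1727 names) was filtered with filterByExpr, which kept 668 names with 99.98% of its counts, scaled with TMM and tested in edgeR 4.0.16 (quasi-likelihood, robust) under R 4.3.3 with limma 3.58.1, without a block. P-values were adjusted by Benjamini-Hochberg over 668 names, with calls at 0.05. The SE is the fold change over the root of F. Arm shares were compared by exact permutation over libraries (scipy 1.17.1). DESeq2 1.42.0, limma-voom, other scalings and filters, and omission of each library were alternatives. The fit was tested on 5 simulated data sets with 200 changed names each. It called 30.8% of names changed 2-fold, 92.4% of those changed 4-fold and 0.918% of unchanged names. These rates pool names of all levels. Rates for the members, or with fewer changed names, were not measured. No 2 libraries were copies, with a smallest chi-square per degree of freedom of 300.4. All members are named in every library, and other names come from written lists. Members and lists were chosen with earlier results of these data known.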

Additional observations from a re-analysis of the deposited data

How the results depend on the processing

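No member passed an adjusted p of 0.05 in any of the 19 fits run, and the lowest adjusted p of the 6 tested members was 0.53. The count of known miRNAs called with edgeR, 0, did not move under 3 other scalings (RLE, upper quartile, library size), under limma-voom, under a filter of CPM 10 in 3 libraries, in a fit to all classes of rows, without miR-21-5p or with hairpin rows joined. It was 4 with DESeq2, 3 with DESeq2 on filtered names, 9 with no filter, 1 with the replicate block, and 0 to 1 when a library was left out. The causes were not tested. Joining hairpin rows and DESeq2 on filtered names were chosen after seeing the data, as was leaving libraries out of the sum.

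Over settings with all libraries, 0 of 68 member fold changes changed sign. They ran from -0.52 to -0.31 for hsa-miR-877-5p and from 0.49 to 0.82 for hsa-miR-877-3p. When a library was left out, log2 fold changes ran from -0.37 to 0.22 for hsa-miR-1224-5p, -0.21 to 0.079 for hsa-miR-1226-3p, -0.17 to 0.44 for hsa-miR-1227-3p and -0.85 to 0.30 for hsa-miR-1229-3p, changing sign in 5 cases. With all classes of rows the median log2 fold change of tested miRNAs was -0.093, against 0.043. Deviations of same-numbered libraries correlated at -0.091, 0.20 and -0.12, so the numbers were not taken to pair the samples. With the replicate block the exact permutation p of the 5p share was 0.5, and the block called no member. That p permutes signs within 3 pairs only, so it cannot go as low as the 0.1 possible without the block. The 2 p-values are therefore not comparable. With a detection limit of 1 count in place of 3, 17 of 54 pairs of member and library lay at or under it, against 18. With 10 counts it was 19, the added pair being hsa-miR-877-3p in control library 2, with 6 counts.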

Other observations

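Reads of the intron class, fragments of introns in general, made up 12.9%, 14.5% and 13.7% of all counts in PRMT1 libraries 1 to 3, and 14.5%, 8.74% and 14.1% in control libraries 1 to 3. Control library 2, lowest in this class, also had the lowest sum of mirtron counts, 466, and the highest miR-21-5p share, 66.0%. PRMT1 library 3, at 13.7% in this class, had the next lowest sum, 539. A link between the intron class and mirtron counts was not tested. Scaled to the total of the intron class in place of known miRNAs, the mirtron arms summed to 245, 185 and 165 CPM in PRMT1 and to 302, 213 and 246 CPM in control libraries. The groups overlapped in this measure.

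Some reads were listed under a member's name in the hairpin class and were left out of the levels. For hsa-miR-877-5p these were 2, 3 and 8 counts in PRMT1 and 1, 4 and 17 counts in control libraries. For hsa-miR-877-3p they were 8, 15 and 0 counts in PRMT1 and 4, 2 and 0 counts in control libraries, so PRMT1 library 2 had 15 beside its 31 mature counts. With these rows joined to the mature rows, the difference in 5p share was -3.86 percentage points, PRMT1 minus control, against -2.73 without them (exact permutation p = 0.2 for each).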
